A study of Mus musculus with 2 samples.

Results

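Granzymes and perforin are the proteins that cytotoxic lymphocytes store in granules to kill target cells. The 6 genes described here, Gzma, Gzmb, Gzmc, Gzmk, Gzmm and Prf1, were taken by symbol from a table of 22032 genes measured in single cells of the embryonic mouse thymus. The cells were double-negative 1 (DN1) cells, a sorted thymocyte fraction that holds the earliest T cell progenitors together with innate lymphoid cells (ILCs). They came from reporter mice called 5x polychromILC, whose reporter genes mark lineage factors of ILC and T cell development. The labels give 2 samples, E15.5_DN1 and E19.5_DN1, 1 library each, and both groups carry the same reporters. The sources used here do not say how many embryos were pooled. The barcodes carry suffix 1 or suffix 2, and no label ties a suffix to a stage, so the suffixes are compared as 2 sets of barcodes and no stage is named.

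Perforin, the product of Prf1, forms pores through which granzymes, a family of serine proteases, reach the inside of the target cell. Granzyme A cleaves after basic residues and granzyme B after aspartate, and granzyme B can start apoptosis by cleaving caspases and their substrates. Natural killer (NK) cells, group 1 ILCs (ILC1) and cytotoxic T cells carry these granules, held on the proteoglycan serglycin. Group 2 ILCs (ILC2) and uncommitted progenitors are known mainly for other functions.

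The 6 genes lie at 4 places in the mouse genome (GRCm38, GENCODE vM21). Gzma (chr13:113093825-113100981, minus strand) and Gzmk (chr13:113171608-113225908, minus strand) are 70.6 kb apart. Gzmb (chr14:56258838-56262260, minus strand) and Gzmc (chr14:56231441-56234656, minus strand) are 24.2 kb apart, beside Gzmd, Gzme, Gzmf, Gzmg and Gzmn. Prf1 (chr10:61297833-61304680) and Gzmm (chr10:79689020-79695261) lie on the plus strand of chromosome 10. The sequences just upstream of the RefSeq starts (GRCm38.p6) are shown for the 3 abundant granzymes and for Gzme and Gzmg. These last 2 genes resemble Gzmc upstream but had no unique molecular identifier (UMI, the tag that marks 1 captured transcript) in any kept barcode. Each window has 150 bases, reads 5′ to 3′ on the minus strand, and ends before the annotated gene. Capitals mark matches, on either strand, to RUNX (TGTGGT), T-box (AGGTGT), ETS (AGGAAG), AP-1 (TGAGTCA) and CRE (TGACGT) letters, where adjoining CRE matches on the 2 strands form the palindrome TGACGTCA.
Gzma (chr13:113100982-113101131): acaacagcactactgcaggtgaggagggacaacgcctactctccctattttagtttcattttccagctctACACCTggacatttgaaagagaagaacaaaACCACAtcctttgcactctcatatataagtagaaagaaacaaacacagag
Gzmb (chr14:56262335-56262484): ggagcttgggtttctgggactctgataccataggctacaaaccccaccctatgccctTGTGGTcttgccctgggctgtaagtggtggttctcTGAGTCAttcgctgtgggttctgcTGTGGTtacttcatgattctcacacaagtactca
Gzmc (chr14:56234658-56234807): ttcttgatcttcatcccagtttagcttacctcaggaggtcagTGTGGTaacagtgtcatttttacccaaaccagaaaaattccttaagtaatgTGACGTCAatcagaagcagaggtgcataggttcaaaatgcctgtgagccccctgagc
Gzme (chr14:56120626-56120775): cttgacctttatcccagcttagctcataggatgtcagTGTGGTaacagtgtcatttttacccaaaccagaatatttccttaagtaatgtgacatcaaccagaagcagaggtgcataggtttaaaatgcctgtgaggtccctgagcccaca
Gzmg (chr14:56159580-56159729): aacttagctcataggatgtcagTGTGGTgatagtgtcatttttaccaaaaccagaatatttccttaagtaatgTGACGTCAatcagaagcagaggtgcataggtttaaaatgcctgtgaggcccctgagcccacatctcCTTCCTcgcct

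The Gzma window held 1 RUNX and 1 T-box match, and the Gzmb window held 2 RUNX matches and 1 AP-1 match. The Gzmc window held 1 RUNX match and the CRE palindrome. Aligned to Gzmc, the Gzmg window was identical at 118 of 130 columns (90.8%) and kept the palindrome. The Gzme window was identical at 133 of 148 columns (89.9%) and held the RUNX letters without the CRE letters. Of 32851 windows of the same length upstream of RefSeq genes, 8.40% held the RUNX letters, 6.86% the T-box letters, 19.7% the ETS letters, 2.84% the AP-1 letters and 5.15% the CRE letters. A match is a description of the letters only. In the last 300 transcript bases, where 3′ libraries read, 0 of the 270 stretches of 31 bases in each of the 6 genes occurred in another gene of this family. For Gzmd, Gzme, Gzmf, Gzmg and Gzmn that share ran from 23.0% to 39.3%, so reads could be split among those genes but not between them and the 6 described here.

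After filters 5412 of 6057 barcodes remained, 2137 of suffix 1 and 3275 of suffix 2, with 98990160 UMIs in all. The median was 14841 UMIs per barcode in suffix 1 and 13688 in suffix 2. Barcodes were gated on at least 2 UMIs of each of a pair of genes. The NK/ILC1 gate (Xcl1 and Nkg7) held 732 barcodes of suffix 1 and 490 of suffix 2. The DN2/DN3 gate (Cd3g and Myb, early T lineage) held 125 and 111, the progenitor gate (Spi1 and Bcl11a) 206 and 519, and the ILC2 gate (Icos and Rora) 187 and 791. The gamma-delta T gate (Cd3d and Sox13) held 1 and 43. A further 138 and 134 met more than 1 gate, 485 and 1128 met none, and 263 and 59 with at least 2 UMIs of Krt8, Krt18 and Prss16 together, epithelial transcripts, were set apart. The markers not used for gating were highest in their own gate for 8 of 8 NK/ILC1, 8 of 8 progenitor, 8 of 8 ILC2, 5 of 8 DN2/DN3 and 4 of 5 gamma-delta T genes. Bcl11b, Lef1 and Tcf12 were highest in the gamma-delta T gate and Cd163l1 in the ILC2 gate. Kit had a UMI in 45.0% of kept barcodes and Cd44 in 53.9%, while Cd4 had one in 1.35% and Cd8a in 2.70%. Il2ra, which a DN1 sort is meant to leave out at the protein level, had one in 36.2%. The 2 suffixes shared 25 barcode sequences. There are no replicates, so no test was run, and every 95% interval covers counting error only. UMIs of 1 barcode are not independent, which these intervals do not include.

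Granzyme A was the most widely detected member, with 81605 UMIs in kept barcodes, 45.5% of them in the NK/ILC1 gate. In that gate it reached 3460 CPM (UMIs of the gene per 1000000 UMIs of the gate; interval 3422 to 3498) in suffix 1 and 906 (882 to 930) in suffix 2. The DN2/DN3 gate had 2229 CPM (2186 to 2274) in suffix 1 and 744 (714 to 775) in suffix 2, so early T lineage barcodes came next to NK/ILC1 barcodes in suffix 1. In suffix 2 the highest level was in the 43 barcodes of the gamma-delta T gate, at 2681 CPM (2559 to 2807), and the 1 such barcode of suffix 1 held 24 Gzma UMIs. The ILC2 gate had 310.1 CPM (292 to 329) in suffix 1 and 29.0 (25.9 to 32.4) in suffix 2. The progenitor gate was lowest, at 161 CPM (152 to 171) and 22.8 (20.6 to 25.1). Within each suffix no neighbours in this order had overlapping intervals. Per barcode, the order of the NK/ILC1 and DN2/DN3 gates in suffix 2 was less clear. Their mean barcode CPM was 976 and 948, and their median barcode CPM was 141 and 435, the reverse order.

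Levels of Gzma differed widely between barcodes of 1 gate. Barcodes of the NK/ILC1 gate had a median of 18 Gzma UMIs and a highest value of 617 in suffix 1, and a median of 2 and a highest value of 369 in suffix 2. The 74 barcodes with most Gzma held 58.5% of its Gzma UMIs in suffix 1, and the top 49 held 67.6% in suffix 2. In the DN2/DN3 gate the median was 57 UMIs and the highest 587 in suffix 1, against 11 and 149 in suffix 2. Most barcodes of that gate therefore held some Gzma. At an equal depth of 6974 UMIs, Gzma was detected in 87.8% of DN2/DN3 barcodes (80.7 to 93.0) in suffix 1 and 73.1% (62.9 to 81.8) in suffix 2. In the NK/ILC1 gate the shares were 81.5% (78.2 to 84.4) and 58.8% (54.1 to 63.4), and in the gamma-delta T gate of suffix 2 the share was 69.0% (52.9 to 82.4). Before thinning to that depth, the NK/ILC1 shares were 86.3% and 65.9%. Progenitor barcodes, set as the reference for background RNA, had a share of 29.6% (23.5 to 36.4) in suffix 1 and 5.41% (3.62 to 7.72) in suffix 2. ILC2 barcodes had 25.8% (19.6 to 32.8) and 4.87% (3.46 to 6.66), which did not exceed the progenitor shares. At least 10 UMIs of Gzma were nevertheless found in 7.14% of ILC2 barcodes and 1.94% of progenitor barcodes in suffix 1. Progenitor barcodes with Gzma also had more Bcl11b, a T lineage factor, than those without, by log2 ratios of 3.27 and 4.25, so how much of their Gzma is background was not tested. Median depths before thinning were 31917.5 and 32170 UMIs in the progenitor gate, 11243 and 11053.5 in the NK/ILC1 gate and 33723 and 23222 in the DN2/DN3 gate.

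**Figure D1:**
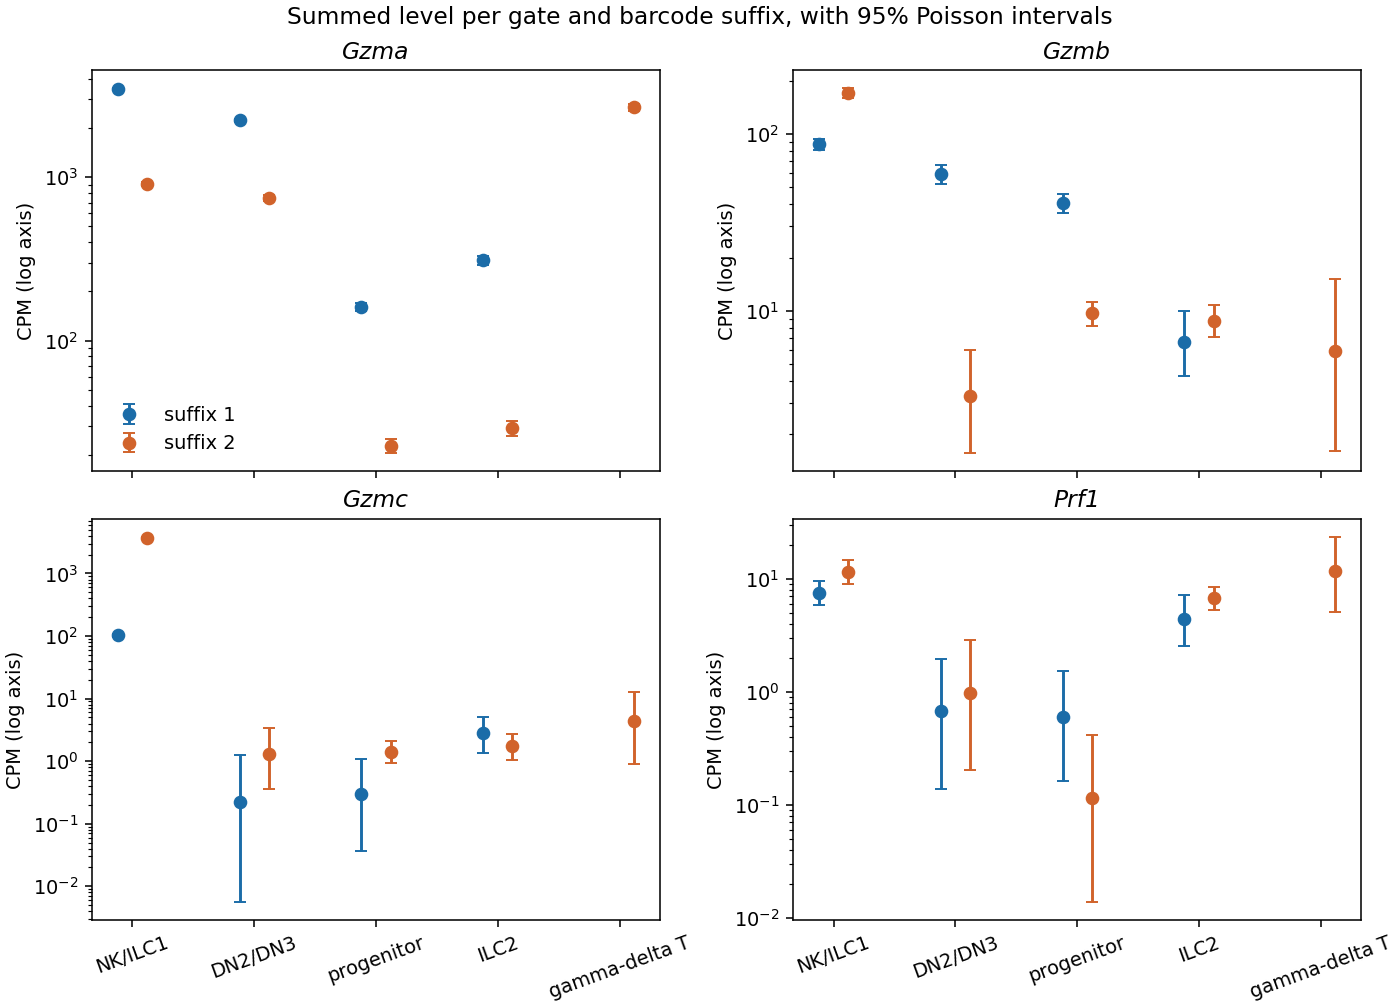
Level of Gzma, Gzmb, Gzmc and Prf1 (CPM, log axis) in each gate, by barcode suffix, with exact 95% Poisson intervals as bars. Gzma was high in the NK/ILC1, DN2/DN3 and gamma-delta T gates, while Gzmc reached 3737 in the NK/ILC1 gate of suffix 2 and stayed under 5 in every other gate.

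UMIs of the NK receptor genes Ncr1, Klrb1c and Klrd1, which no gate used, were few in the other barcodes rich in Gzma. These genes were picked, after their values were seen, from the 8 NK/ILC1 markers that no gate used. The whole list of 10 NK/ILC1 markers was not absent from those barcodes. Over both suffixes it had 5973 CPM in the NK/ILC1 gate, 396 in the DN2/DN3 gate and 132 in the gamma-delta T gate. Of its 2975 UMIs in the DN2/DN3 gate, 2162 were of the gate genes Xcl1 and Nkg7, with only 16 of Xcl1. Most of the remaining UMIs were of Il2rb, Tbx21, Eomes, Ccl5 or Klre1, not of the named receptor genes. Over both suffixes, the receptor gene Ncr1 had 2454 UMIs in the NK/ILC1 gate, 1 in the DN2/DN3 gate and 0 in the gamma-delta T gate. Klrb1c, another NK receptor gene, had 1267, 0 and 0, and Klrd1 had 11084, 24 and 0. The gates left out barcodes that met the NK/ILC1 gate as well, which also lowers these counts, so the source of Gzma in DN2/DN3 and gamma-delta T barcodes was not tested.

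Granzyme B had 4109 UMIs, 44.6% of them in the NK/ILC1 gate, and was concentrated in few barcodes. Its level there was 87.5 CPM (81.6 to 93.8) in suffix 1 and 171 (160 to 182) in suffix 2. The 74 highest barcodes held 84.8% of its UMIs in suffix 1 and the 49 highest 89.3% in suffix 2, with up to 64 and 151 UMIs in a barcode. Its share of NK/ILC1 barcodes at equal depth was nearly the same in both suffixes, 18.4% and 18.5%. In the DN2/DN3 gate Gzmb had 59.4 CPM (52.4 to 67.0) in suffix 1 and 3.27 (1.57 to 6.02) in suffix 2. Of the 265 DN2/DN3 UMIs of suffix 1, 69.4% lay in 13 barcodes and 91 in 1 barcode. The progenitor gate had 40.6 CPM (35.9 to 45.7) in suffix 1 and 9.65 (8.25 to 11.2) in suffix 2, with no more than 17 UMIs in a barcode. The ILC2 gate had 6.68 CPM (4.28 to 9.94) and 8.79 (7.12 to 10.7), and the gamma-delta T gate of suffix 2 had 5.93 (1.62 to 15.2) from 4 UMIs of 1 barcode. In suffix 2 the NK/ILC1 interval lay apart from the rest, while each of the progenitor, ILC2, gamma-delta T and DN2/DN3 gates overlapped its neighbour in the order.

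The share of barcodes with Gzmb gives a different picture from its level. In suffix 1 it was 17.0% (12.1 to 22.8) in the progenitor gate and 20.3% (13.6 to 28.5) in the DN2/DN3 gate, both with intervals that held the NK/ILC1 share of 18.4%. Progenitor barcodes were to serve as the background here too. Their ratio of Gzmb to Gzma was higher than in the NK/ILC1 and DN2/DN3 gates, and the source of their Gzmb was not tested. There were 0.252 Gzmb UMIs per Gzma UMI (0.219 to 0.288) in progenitor barcodes of suffix 1, and 0.0253 in the NK/ILC1 and 0.0266 in the DN2/DN3 gate. The ratio in suffix 2 was 0.424 in the progenitor gate, 0.189 in the NK/ILC1 gate and 0.0044, from 10 Gzmb UMIs, in the DN2/DN3 gate. ILC2 barcodes of suffix 1, at 0.0215 (0.0137 to 0.0322), had a ratio that overlapped that of the NK/ILC1 gate. ILC2 barcodes of suffix 2, at 0.303 (0.238 to 0.382), lay above the NK/ILC1 gate (0.176 to 0.202). Their share with Gzmb, 6.04% (3.06 to 10.6) in suffix 1 and 1.58% (0.820 to 2.75) in suffix 2, lay below the progenitor share, which was 5.02% (3.30 to 7.27) in suffix 2. The DN2/DN3 share in suffix 2, 2.15% (0.262 to 7.55), came from 2 barcodes and overlapped it.

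**Figure D2:**
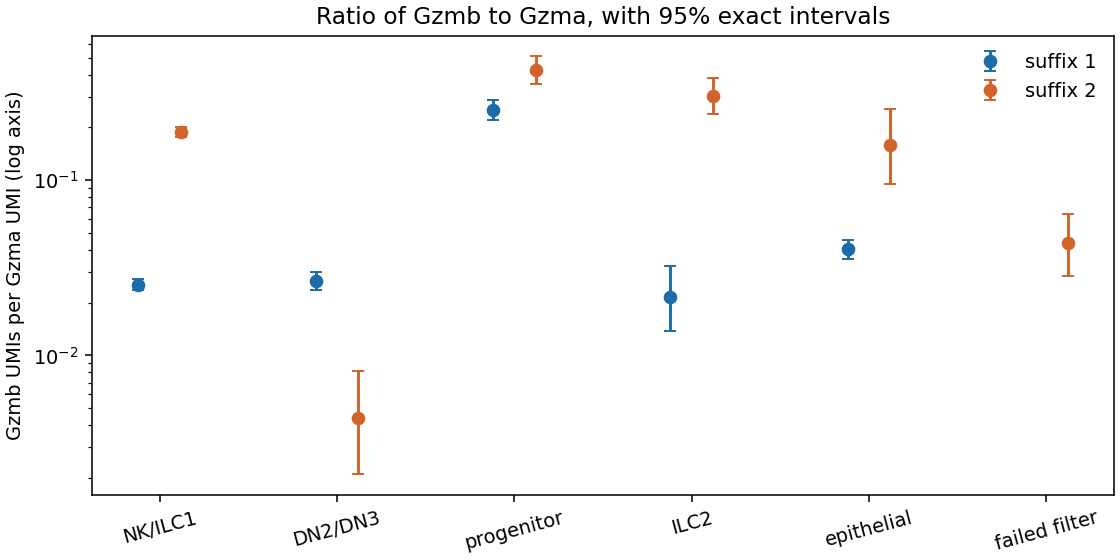
Gzmb UMIs per Gzma UMI (log axis) in barcodes of 4 gates, with epithelial transcripts, and failing the filter, by suffix, with exact 95% intervals. Progenitor barcodes lie at 0.252 in suffix 1 and 0.424 in suffix 2, above the NK/ILC1 gate in each suffix.

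Progenitor gate barcodes with and without Gzmb were set side by side at their own depths. In suffix 1 the 88 barcodes with Gzmb had a median of 34020 UMIs and the 118 without had 30679.5. In suffix 2 the 91 with Gzmb had 35475 and the 428 without had 31592. Of 8 progenitor markers not used for the gate, 4 were lower with Gzmb in suffix 1 and 6 in suffix 2, by intervals of the ratio that did not reach 0, and none was higher. Flt3, the receptor of the earliest progenitors, had 2.31 CPM with Gzmb and 7.89 without in suffix 1 (log2 ratio -1.77), and 4.66 and 21.0 in suffix 2 (-2.17). The stem cell factor gene Lmo2 was lower by log2 ratios of -1.68 and -1.47. Of 9 genes of T lineage entry, 4 were higher with Gzmb in both suffixes, which were Bcl11b (1.28 and 1.63), Il2ra (0.46 and 1.68), Dtx1 (1.13 and 1.38) and Tcf7 (0.70 and 0.73). Tcf7 is not one of the 8 DN2/DN3 markers counted above and was added for this comparison. Ptcra, Rag1, Rag2, Lef1 and Tcf12 were not higher in either suffix, and Ptcra, Rag1 and Lef1 had few UMIs. Gzmb-positive progenitor gate barcodes thus had less of some of the earliest markers and more of Bcl11b, Il2ra, Dtx1 and Tcf7. Kit and Lyl1, also progenitor markers, had intervals that included 0 in both suffixes. Cpa3, a mast cell and progenitor protease, was also higher (0.76 and 0.99). Ccl5, a marker of the NK/ILC1 list, was higher with Gzmb in suffix 2 (19.8 and 3.27 CPM, 2.60, 2.04 to 3.17), and its interval included 0 in suffix 1 (0.17, -0.64 to 0.98). Split by Gzma instead, 3 and 4 of the 8 progenitor markers were lower and 3 and 5 of the 9 T lineage genes higher. Barcodes with Gzmb were also deeper, and the part of depth in these differences was not tested. The counts cover the listed markers only, with no share over all genes beside them.

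Most UMIs of granzyme C lay in the NK/ILC1 gate, which held 94.2% of the 24960 over both suffixes. That gate held 941 of the 1570 Gzmc UMIs of suffix 1 and 22564 of the 23390 of suffix 2. Gzmc had 103 CPM (96.4 to 110) there in suffix 1 and 3737 (3689 to 3786) in suffix 2. The highest barcode had 60 Gzmc UMIs in suffix 1 and 725 in suffix 2, where the median was 4 and the top 49 barcodes held 64.0%. In suffix 1, 222 Gzmc UMIs lay in barcodes that met more than 1 gate, 203 in those that met none and 191 in the epithelial barcodes. Few were found in the other gates. The DN2/DN3 gate had 1 and 4 UMIs (0.224 and 1.31 CPM), the progenitor gate 2 and 25 (0.298 and 1.43), the ILC2 gate 10 and 19 (2.78 and 1.74), and the gamma-delta T gate of suffix 2 had 3 (4.45). At equal depth Gzmc was detected in 28.6% of NK/ILC1 barcodes (25.1 to 32.3) in suffix 1 and 71.4% (67.0 to 75.5) in suffix 2, and in no more than 7.14% of any other gate. Gzmd, Gzme, Gzmg and Gzmn, its neighbours, had 0 UMIs in kept barcodes, and Gzmf had 1.

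Perforin transcripts were sparse, with 363 UMIs in kept barcodes, 38.3% of them in the NK/ILC1 gate. Prf1 had 7.54 CPM (5.87 to 9.54) in that gate in suffix 1 and 11.6 (9.04 to 14.6) in suffix 2, with at most 3 and 6 UMIs in a barcode. The ILC2 gate had 4.45 CPM (2.55 to 7.23) and 6.78 (5.32 to 8.51), and the gamma-delta T gate of suffix 2 had 11.9 (5.12 to 23.4) from 8 UMIs. Prf1 was therefore found in ILC2 barcodes as well. The DN2/DN3 gate had 3 UMIs in each suffix (0.672 and 0.982 CPM) and the progenitor gate 4 and 2 (0.596 and 0.114). In the order of levels, NK/ILC1 and ILC2 barcodes overlapped in suffix 1 but not in suffix 2, and the gamma-delta T and NK/ILC1 gates overlapped in suffix 2. The share of barcodes with Prf1 at equal depth was 5.06% and 6.17% in the NK/ILC1 gate and 3.30% and 5.27% in the ILC2 gate. In the progenitor gate it was 0 of 206, which allows a share of up to 1.46%, and 0 of 518, which allows up to 0.579%. The ILC2 share in suffix 2 (3.79 to 7.11) thus stood above that of progenitor barcodes.

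Gzmk, a granzyme of memory-type T cells, and Gzmm, a granzyme of NK cells, were nearly undetected. Gzmk had 2 UMIs in kept barcodes and 0 in the 5 gates. Over both suffixes the NK/ILC1 gate's 0 UMIs allow a level of up to 0.198 CPM by 3 counts. Gzmm had 37 UMIs, 16 in suffix 1 and 21 in suffix 2, of which 7 fell in the NK/ILC1 gate, 5 in DN2/DN3, 9 in progenitor, 3 in ILC2 and 0 in gamma-delta T barcodes. All Gzmm intervals overlapped, so an order of gates was not detectable at this depth.

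**Figure D3:**
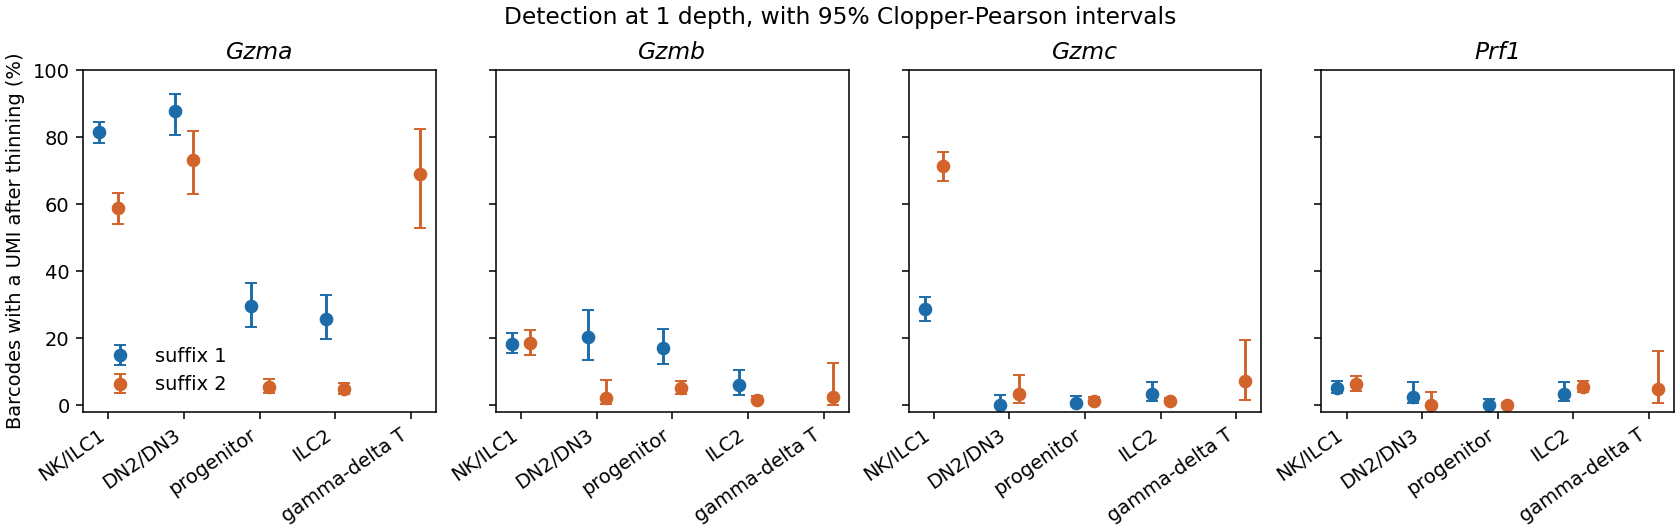
Share of barcodes with at least 1 UMI of Gzma, Gzmb, Gzmc and Prf1 (percent), by gate and suffix, after each barcode was thinned to 6974 UMIs, with exact 95% binomial intervals. Gzmb was found in 18.4% and 18.5% of NK/ILC1 barcodes, close to the 17.0% of progenitor barcodes in suffix 1.

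NK/ILC1 barcodes of suffix 2 had less granzyme A and far more granzyme C than those of suffix 1. Gzma was lower by a log2 ratio of -1.93 (-1.98 to -1.89), while Gzmc was higher by 5.18 (5.09 to 5.28), or 36.3-fold. Gzmb was higher by 0.96 (0.83 to 1.10) and Prf1 by 0.62 (0.12 to 1.12). Of the 4 members with at least 20 UMIs, 2 lay past 2-fold, 1 higher and 1 lower. Of 10145 genes 16.6% did, 10.9% higher and 5.8% lower, with a median log2 ratio of 0.18. Suffix 1 barcodes of this gate often held UMIs of other gates. Of them, 493 of 732 had at least 1 UMI of Spi1, Bcl11a, Icos, Rora, Sox13 or Myb, against 236 of 490 in suffix 2. Over the 239 and 254 without any such UMI, a comparison chosen after the data were seen, Gzma had 6315 and 931 CPM (-2.76) and Gzmc 91.9 and 4609 (5.65). The differences of Gzma and Gzmc were as large without those barcodes. Gzmb had 167 and 210 CPM (0.34, 0.16 to 0.51) and Prf1 12.7 and 11.3 (-0.16, -0.89 to 0.58), so the Gzmb difference was smaller and the direction of Prf1 turned.

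The DN2/DN3, progenitor and ILC2 gates also had less Gzma in suffix 2. It was lower by -1.58 (-1.65 to -1.52) in the DN2/DN3 gate, -2.82 (-2.99 to -2.66) in the progenitor gate and -3.42 (-3.60 to -3.24) in the ILC2 gate. Gzmb was lower in the DN2/DN3 gate (-4.18, -5.26 to -3.28) and the progenitor gate (-2.07, -2.36 to -1.79). In the ILC2 gate its interval included 0 (0.40, -0.26 to 1.11), as did that of Prf1 (0.61, -0.19 to 1.48). Gzmc was higher in the progenitor gate, from 2 UMIs in suffix 1 and 25 in suffix 2 (2.26, 0.25 to 5.38), and its interval included 0 in the ILC2 gate (-0.68, -1.85 to 0.59). Past 2-fold lay 6.81% of genes in the DN2/DN3, 4.95% in the progenitor and 11.4% in the ILC2 gate. The part of free RNA in the differences of the progenitor and ILC2 gates was not tested.

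Set against the other gates, the NK/ILC1 gate stood apart most by Gzmc. Over the DN2/DN3 gate the log2 ratio of Gzmc was 8.84 (6.36 to 14.15) in suffix 1, from 1 UMI in the latter, and 11.48 (10.12 to 13.35) in suffix 2. Gzma differed little between these gates, by 0.63 and 0.28. Gzmb was higher by 0.56 (0.36 to 0.77) in suffix 1 and 5.70 (4.82 to 6.77) in suffix 2, and Prf1 by 3.49 (1.88 to 5.80) and 3.56 (1.95 to 5.87). That put 2 of 4 members past 2-fold in suffix 1, where 24.9% of genes were, and 3 of 4 in suffix 2, where 29.8% were. Over the progenitor gate all 4 lay past 2-fold in both suffixes, beside 26.4% and 33.3% of genes, with Gzma at 4.42 and 5.31, Gzmb at 1.11 and 4.15, Gzmc at 8.43 and 11.35 and Prf1 at 3.66 and 6.67. Over the ILC2 gate 3 of 4 did, beside 14.3% and 17.4%. Prf1 was the exception there, at 0.76 (-0.04 to 1.64) and 0.78 (0.28 to 1.27), below 2-fold in both. Over the gamma-delta T gate of suffix 2, where 22.5% of genes lay past 2-fold, Gzma was lower (-1.57, -1.64 to -1.49), and Gzmb (4.85, 3.49 to 6.73) and Gzmc (9.72, 8.17 to 11.99) were higher. Over both suffixes together, 3 of 4 members lay past 2-fold against the DN2/DN3 gate (26.8% of genes), 4 against the progenitor gate (29.9%), 3 against the ILC2 gate (17.1%) and 2 against the gamma-delta T gate (23.6%).

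DN2/DN3 barcodes exceeded progenitor barcodes by Gzma in both suffixes, by log2 ratios of 3.79 and 5.03. Gzmb was higher in suffix 1 (0.55, 0.30 to 0.80) and lower in suffix 2 (-1.56, -2.65 to -0.64). The value of suffix 1 includes 1 DN2/DN3 barcode that held 91 of the 265 Gzmb UMIs of its gate. Between these gates 7.86% and 13.3% of genes lay past 2-fold.

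The other genes of the granule pathway were followed in lists. Of 10 granule contents and processing genes tested, 3 were higher past 2-fold in the NK/ILC1 gate than in the DN2/DN3 gate and 1 was lower in suffix 1 (median log2 ratio 0.93), and 7 were higher in suffix 2 (1.24). Of all genes tested 10.2% were higher and 14.6% lower in suffix 1 (median -0.23), and 14.7% and 15.1% in suffix 2 (-0.14). Ctsw, a cathepsin of cytotoxic cells, had 748 CPM in the NK/ILC1 gate and 15.7 in the DN2/DN3 gate of suffix 1, and 1572 and 23.9 in suffix 2. Of the genes for granule docking and release, 1 of 12 was higher and 2 lower in suffix 1 (median -0.10), and 1 of 13 was higher in suffix 2 (0.06). That gene was Stx11, a syntaxin needed for granule release, at 3.24 and 3.08. Most genes of the release machinery lay within 2-fold between these gates, as did most of all genes tested. Past 2-fold in either direction lay 24.9% of all genes in suffix 1 and 29.8% in suffix 2. In suffix 1 the release genes were thus near the share of all genes. All 9 of the other killing and type 1 effector genes were higher in both suffixes (medians 3.00 and 3.15), with Ccl3 in suffix 1 set against 0 UMIs by 3 counts. Of regulators and receptors of cytotoxic genes, 11 of 18 were higher and 4 lower in suffix 1, and 13 of 17 higher and 3 lower in suffix 2. Of 5 cell cycle genes 0 were higher in either suffix, and 2 were lower in suffix 2.

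From suffix 1 to suffix 2 within the NK/ILC1 gate, 10.9% of 10145 genes were higher past 2-fold and 5.8% lower (median log2 ratio 0.18). The other granule contents moved less than Gzma and Gzmc. Of 10 such genes 3 were higher past 2-fold and 0 lower: Ctsw had 748 and 1572 CPM (1.07), Serpinb9, an inhibitor of granzyme B, 15.8 and 32.3 (1.03), and Gnptab, which helps mark enzymes for lysosomes, 4.26 and 8.78 (1.04). Srgn, which encodes serglycin, had 761 and 1195 CPM (0.65). Of the effector genes, Tnfsf10, the death ligand TRAIL, was higher (86.0 and 180 CPM, 1.06). Lower were the chemokines Ccl3 (91.7 and 11.6, -2.98) and Ccl4 (172 and 69.9, -1.30) and the cytokine Lta (53.9 and 22.2, -1.28). Of the 9 effector genes 1 was thus higher and 3 lower, so the list did not move as a group with either granzyme. Ifng had 131 and 153 CPM and Ccl5 1500.3 and 1169. Of 18 regulators and receptors 4 were higher, which were Hopx (14.4 and 81.0 CPM, 2.49), Eomes (6.12 and 18.4, 1.59), Stat4 (1.36) and Il18r1 (1.14), and 1 was lower, Zeb2 (-2.46). Of 13 docking and release genes 1, Syt11, was higher (2.10), which is no more than the share of all genes.

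Within the NK/ILC1 gate, Gzma and Gzmc were compared barcode by barcode at 6974 UMIs. The 3′ method tags each transcript near its end, so these counts do not scale with transcript length. In suffix 1, 500 of 632 barcodes had more Gzma than Gzmc UMIs and 29 had more Gzmc, while 6 had equal counts and 97 had neither. In suffix 2, 136 of 454 had more Gzma and 248 more Gzmc, while 19 had equal counts and 51 had neither. At least 10 UMIs of Gzma were found in 406 and 77 barcodes and at least 10 of Gzmc in 8 and 167, and at least 10 of both in 6 and 20. Of the 8 barcodes of suffix 1 with that much Gzmc, 6 also had that much Gzma, so high counts of the 2 granzymes were not kept apart by barcode there. Gzmc was found in 70.4% of suffix 2 barcodes with Gzma and 72.7% of those without, and in 31.3% and 17.1% in suffix 1.

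**Figure D4:**
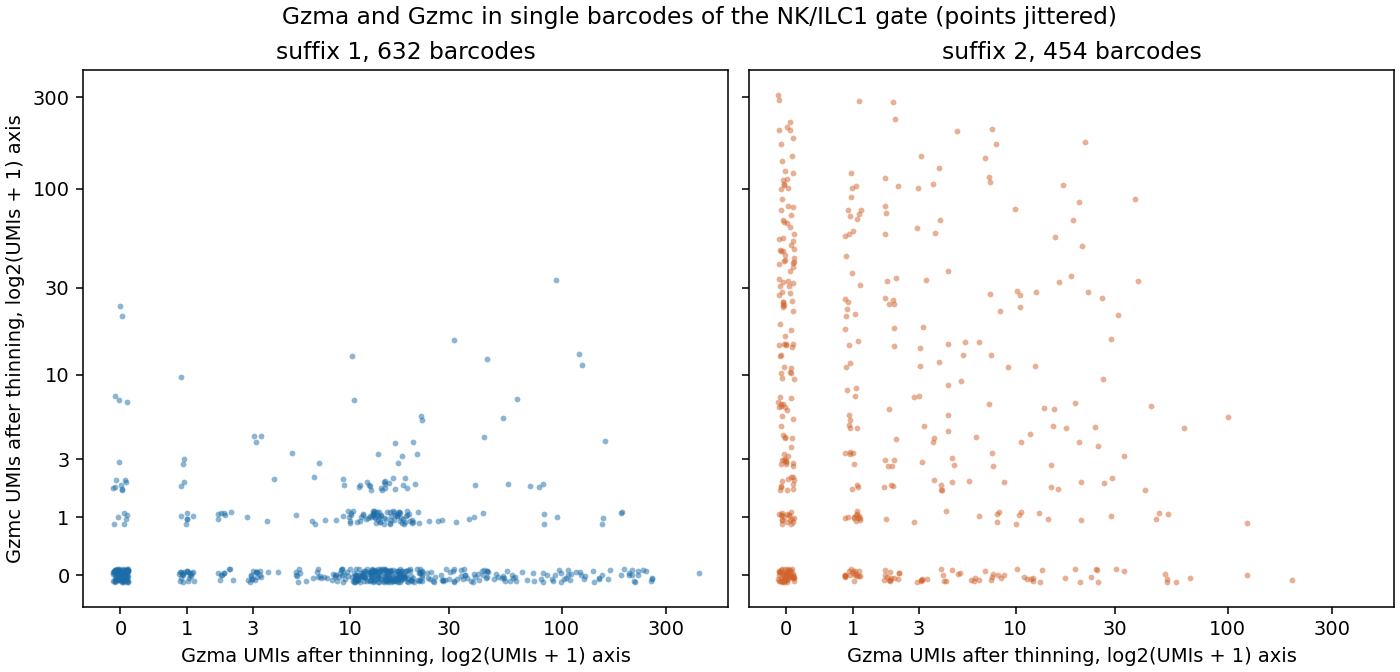
Gzma against Gzmc in each NK/ILC1 barcode thinned to 6974 UMIs (log2 of UMIs plus 1 on both axes, points jittered), with 632 barcodes of suffix 1 and 454 of suffix 2. Suffix 1 barcodes lie along the Gzma axis, suffix 2 barcodes mostly along the Gzmc axis, and 20 of suffix 2 reach 10 UMIs of both.

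Most NK/ILC1 barcodes held 1 or 2 members at this depth. None of the 6 was found in 93 barcodes of suffix 1 and 47 of suffix 2, 1 in 293 and 173, 2 in 187 and 178, 3 in 57 and 49, and 4 in 2 and 7. Gzmb was found in 21.7% of barcodes with Gzma and 3.42% of those without in suffix 1, and in 56 of 267 (21.0%) and 28 of 187 (14.97%) in suffix 2, a difference that was not tested. Prf1 was found in 12.1% of barcodes with Gzmb and 3.49% of those without in suffix 1, and in 13.1% and 4.59% in suffix 2. These shares with Gzmb rest on 14 and 11 barcodes.

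Barcodes with a UMI of a regulator or effector were set beside those without, again at equal depth in the NK/ILC1 gate. Gzmb followed Ccl5, a chemokine of cytotoxic cells, with a mean of 1.87 UMIs in barcodes with Ccl5 and 0.252 in those without in suffix 2 (log2 ratio 2.89, 2.50 to 3.31), and 0.629 against 0.138 in suffix 1 (2.19). Gzma did so too, with 28.4 against 7.59 in suffix 1 (1.90) and 8.81 against 3.88 in suffix 2 (1.18). In suffix 2 the 51 barcodes with Eomes, a T-box factor of mature NK cells, had less Gzmb (-1.51) and Gzmc (-0.73) and more Prf1 (1.87, 0.75 to 2.90) than the 403 without. Gzmb was found in 13.7% of barcodes with Eomes and 19.1% of those without, and Prf1 in 17.6% and 4.71%. The Gzmb and Prf1 ratios thus rest on few barcodes with Eomes. Gzma was higher with Eomes there, as Prf1 was (8.75 against 5.96, 0.55, 0.40 to 0.70), and the share of barcodes with Gzmc was 72.5% against 71.2%. In suffix 1, with 20 such barcodes, the intervals of all 4 genes included 0. The 29 suffix 2 barcodes with Zfp683, a factor of tissue-resident lymphocytes, had 55.1 Gzmc UMIs on average against 23.1 (1.25), while in suffix 1 the interval included 0 (-0.04, -1.05 to 0.81). Likewise the 184 suffix 2 barcodes with Hopx had more Gzmb than the 270 without (1.54, 1.26 to 1.82), and in suffix 1 the interval included 0 (0.22, -0.34 to 0.74). Barcodes with Mki67, a gene of dividing cells, had more Gzma in suffix 1 (32.1 against 19.3, 0.73) and less in suffix 2 (5.63 against 6.64, -0.24). The share of barcodes with Gzma was lower with Mki67 in both suffixes, at 76.9% against 85.8% and 51.8% against 62.8%.

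Gzma was frequent in barcodes with epithelial transcripts in suffix 1. Over all kept barcodes, it had a UMI in 65.5% of those with 0 epithelial UMIs, 78.0% with 1 and 87.5% with 2 or more, and the 10th percentile was 0 UMIs in each class. Among barcodes with at least 2 UMIs of Xcl1 and of Nkg7, the 600 without an epithelial UMI had a median of 16 Gzma UMIs (10th to 90th percentile 0 to 129.4), the 190 with 1 had 20 (4 to 40.1), and the 178 with 2 or more had 27 (12 to 47). A UMI of Gzma was found in 83.2%, 94.2% and 98.9% of these classes. More than 100 Gzma UMIs were found in 75, 5 and 1 of them. Within this subset of barcodes with Xcl1 and Nkg7, those with epithelial UMIs thus had a narrow range of middle Gzma counts, with few at 0 and few at the top. Gzmb was at 95.03, 32.2 and 33.8 CPM in the 3 classes. The classes of suffix 2 held 491, 18 and 6 barcodes, with medians of 2, 3 and 1 Gzma UMIs. Setting the epithelial barcodes apart left a summed level of 8 thymic epithelium markers of 50.05 CPM in the NK/ILC1 gate of suffix 1 and 58.0 in suffix 2, against 645 and 92.9 in the epithelial barcodes. Whether these barcodes hold 2 cells, or NK/ILC1 RNA on epithelial cells, was not tested.

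**Figure D5:**
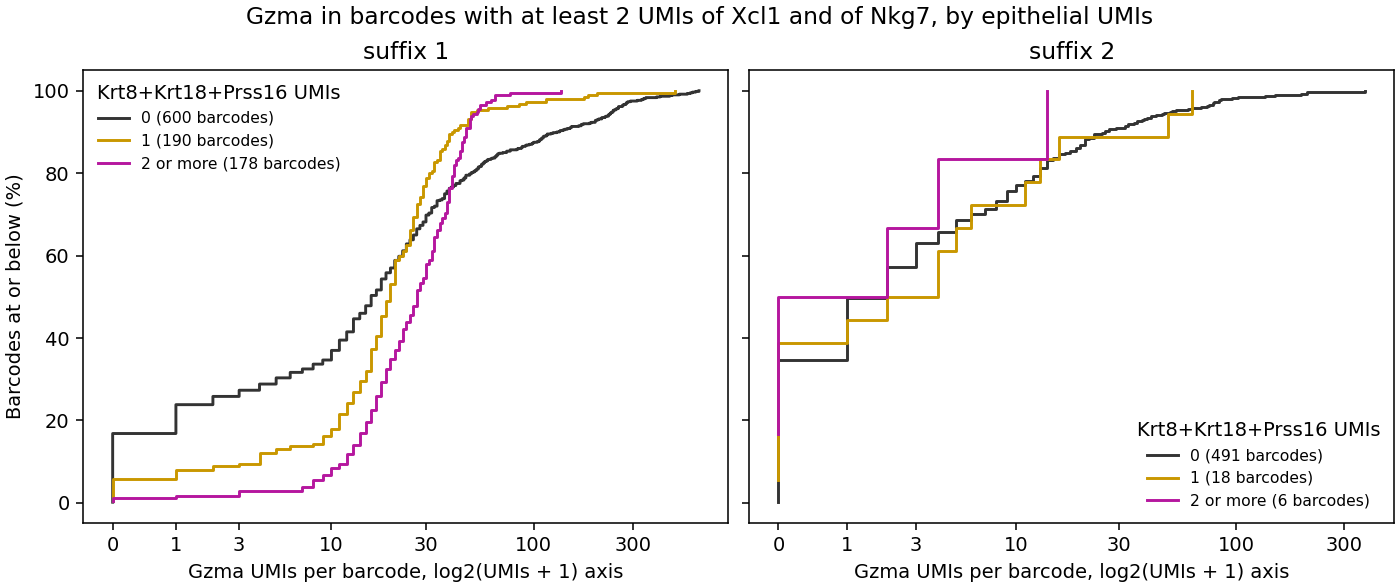
Cumulative share of barcodes with at least 2 UMIs of Xcl1 and Nkg7 (percent) by their Gzma UMIs, in classes of 0, 1 and 2 or more epithelial UMIs, for each suffix. In suffix 1 the class with 2 or more rises steeply around its median of 27 UMIs, while the class with 0 spreads from 0 to more than 100.

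For each member the 3 genes with the most similar pattern were taken from 10179 genes, by Pearson's r of log2(CPM + 1) over 8 gate-by-suffix groups that share libraries and depth. For Gzma these were Hmces (r = 0.95), Mpg (0.93) and Nol7 (0.92), and for Gzmb Aim2 (0.96), Cd38 (0.91) and Clta (0.89). For Gzmc they were Kir3dl1, Lpcat4 and Adgrb2, and for Prf1 Arf5, Sgk1 and H2-Q7, all at 0.99. These genes were picked for a high r among many, and r leaves out the size of a change. Over the 8 groups Hmces ran from 17.2 to 25.7 CPM, Mpg from 23.3 to 34.1 and Nol7 from 270 to 339. Gzma ran from 22.8 to 3460 CPM over the same groups, so these genes varied far less. Among the members, Gzmc and Prf1 had an r of 0.75, Gzmb and Gzmc 0.67, Gzma and Gzmb 0.54, Gzma and Gzmc 0.40, Gzmb and Prf1 0.37, and Gzma and Prf1 0.26. Gzmk and Gzmm had too few UMIs for this measure.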

How the data were processed

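DN1 cells from the embryonic thymus of 5x polychromILC mice were sorted by flow cytometry, and 3′ libraries were made with 10x v3 reagents, per the labels' protocols. These also describe a lysis that gives nuclei, so the input may be cells or nuclei. The authors deposited raw UMI counts per gene and barcode. Cell Ranger 3.0.2, STAR and GRCm38 are named in the submitters' processing notes. No source used here gives the settings for calling cells.

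The members and gene lists were chosen with earlier results of these data known. Barcodes with under 500 genes or over 10% mitochondrial UMIs (35 of suffix 1, 507 of suffix 2) and Scrublet doublets, called per suffix in scanpy 1.11.5 (10, or 0.466%, and 93, or 2.76%), were left out; so few calls in suffix 1 mean that doublets may remain there. Kept barcodes had 713 to 113167 UMIs. A gate needed 2 UMIs of each of its genes and no other gate met. UMIs were summed per gate and suffix, and divided by the summed total (CPM). Intervals at 95% are exact Poisson for CPM, conditional exact for ratios and Clopper-Pearson for shares, the last after thinning to 6974 UMIs (the 10th percentile; 540 kept barcodes were shallower). A count of 0 was limited by 3 counts. Genes with at least 20 UMIs in the 2 groups together were compared, with a threshold of 2-fold. No test was run, since each stage has 1 library. The functions were tested on simulated data. Named genes are the members, the gate genes, the 3 genes most like each member, and, of each list, the 4 most abundant in the NK/ILC1 gate and those past 2-fold where 5 or fewer; list genes set against members within a gate, and Flt3, Lmo2, Kit, Lyl1, Cpa3, Ncr1, Klrb1c, Klrd1 and the T lineage genes, were named after their values were seen. Alternatives covered the gate minimum, overlapping gates, filters, doublets, epithelial barcodes, thinning and scaling. The 5 reporter rows were left out, and 1 locus is not reported here. Upstream windows are from RefSeq (GRCm38.p6). Python 3.11.15, numpy 2.4.6, scipy 1.17.1 and Biopython 1.88 were used.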

Additional observations from a re-analysis of the deposited data

Results flagged for a closer look

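Gzmb differed in opposite directions between the DN2/DN3 and progenitor gates, with a log2 ratio of 0.55 in suffix 1 and -1.56 in suffix 2. Of the 265 Gzmb UMIs of the DN2/DN3 gate in suffix 1, 91 lay in 1 barcode. Whether the direction in suffix 1 holds without that barcode was not tested. The difference between the suffixes was not tested.

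Members were also found in barcodes outside the gates, above the progenitor gate of the same suffix. In barcodes that met no gate, Gzma had 1089 CPM in suffix 1 and 129 in suffix 2, Gzmb 117 in suffix 1, Gzmc 31.6 and 6.07, and Prf1 3.58 and 4.23. In barcodes that met more than 1 gate, Gzma had 1401 CPM in suffix 1 and 1413 in suffix 2, Gzmc 51.6 and 134, Gzmb 19.2 in suffix 2 and Prf1 1.56 in suffix 2. In barcodes that failed the filter, Gzma had 329.7 CPM in suffix 1 and 619 in suffix 2, and in suffix 2 Gzmb had 27.0, Gzmc 879.7 and Prf1 19.0.

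Part of the Gzmb of ungated barcodes in suffix 1 lay in few barcodes with mast cell or basophil transcripts. Of its 750 UMIs, 345 were in 15 barcodes with at least 2 UMIs of Mcpt8, Ms4a2 and Fcer1a together, a set chosen after the values were seen. Those 15 had 1541 CPM of Gzmb, up to 172 UMIs in a barcode and 0 UMIs of Gzma, and the other 470 had the remaining 405 UMIs, or 65.3 CPM. Gzmb was found in 33.3% of the 15, of which 3 had 10 or more Gzmb UMIs. The 34 such barcodes of suffix 2, gated or not, had 7 Gzmb UMIs.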

How the results depend on the processing

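The suffix difference of the NK/ILC1 gate kept its direction for Gzma, Gzmb and Gzmc under every alternative run. For Gzma the log2 ratio was -2.06 with a gate minimum of 1 UMI, -1.85 with barcodes counted in every gate they met, -1.88 with no barcode filter, -2.08 when 1 epithelial UMI set a barcode apart, -1.83 when none was set apart, -1.98 after thinning and -2.76 without barcodes that held UMIs of the 6 genes of other gates. In the same order where they moved, Gzmb was at 0.73 (minimum of 1), 0.77 (1 epithelial UMI), 1.14 (none set apart), 0.78 (mean of barcode CPM) and 0.34 (6 genes), and Gzmc at 5.36 (minimum of 1), 4.98 (every gate), 4.99 (1 epithelial UMI), 5.04 (mean of barcode CPM) and 5.65 (6 genes). Prf1 reversed to -0.16 under the last of these. The exclusion of barcodes by the 6 genes, and that of barcode sequences found in both suffixes, were chosen after seeing the data. Without a minimum of UMIs, genes past 2-fold numbered 5005 against 2909 over the DN2/DN3 gate, 3844 against 1886 over the ILC2 gate, 5721 against 2422 over the gamma-delta T gate and 3389 against 1689 between suffixes, and the share of those that were higher went from 45.5% to 30.6% over the DN2/DN3 gate, from 39.3% to 50.4% over the progenitor gate and from 39.2% to 16.6% over the gamma-delta T gate. Scaling without the 50 most abundant genes changed no count of members. Of 280 CPM values under alternatives, 90 left the counting interval of the value reported. Over both suffixes, Gzma fell to 1084 CPM in the DN2/DN3 gate and 1370 in the gamma-delta T gate with a minimum of 1 UMI, and to 31.5 in the progenitor gate after thinning. Gzmb in the DN2/DN3 gate was 24.4 when 1 epithelial UMI set a barcode apart and 72.7 with a minimum of 1 UMI, and Gzmc in the ILC2 gate was 40.4 with barcodes counted in every gate they met. Of the 3 genes most like each member, 3, 1, 1 and 1 were shared for Gzma, Gzmb, Gzmc and Prf1 with log2(CPM + 10). No paired analysis was possible because there is 1 library per stage. Depth limits Gzmk, Gzmm and, outside the NK/ILC1 and ILC2 gates, Prf1 to counts too low for an order of gates.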

Other observations

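The granzymes of chromosome 14 have mast cell and myeloid proteases as neighbours, which were detected in fewer barcodes than Gzmb (911) and Gzmc (941). In kept barcodes Cma1, a mast cell chymase, had 5415 UMIs in 376 barcodes, Mcpt4 had 3266 in 77, Mcpt2 1944 in 43, Mcpt8 891 in 183 and Mcpt1 655 in 31. Ctsg, a protease of myeloid granules, had 483 UMIs in 140 barcodes. Mcpt9 had 0.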
